A study of Homo sapiens with 49 samples.

Results

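The genes described here are the 54 listed replication licensing, replication fork and E2F genes, taken by symbol from the gene tables of 2 human neuroblastoma experiments. Each table held 23621 entries besides the spike-in RNAs, and all 54 genes were found in both and passed the filter on low values in both. The listed samples came from SHEP-21N cells and BE(2)-C cells, both established neuroblastoma lines, and polyadenylated RNA was sequenced. In SHEP-21N cells MYCN is under TET-off control, so that doxycycline at 0.2 µg/ml shuts it down. Libraries were made at 2, 4, 6, 8, 16 and 24 h of doxycycline (3 at each time) and at 0 h (2 libraries). Doxycycline at 0.5 µg/ml induces, in the BE(2)-C cells, a short hairpin RNA against TWIST1, a helix-loop-helix transcription factor. Libraries were made at 3, 6, 12, 24 and 48 h of doxycycline and with no doxycycline (3 each). All BE(2)-C hairpin groups, the untreated one included, carry the hairpin construct, and all SHEP-21N groups carry the MYCN transgene. No group given doxycycline without the transgene or hairpin was analysed here, so an effect of doxycycline itself cannot be told apart from that of MYCN shutdown or the hairpin. Of the 49 listed samples, 11 from BE(2)-C cells given DMSO or the BET inhibitor JQ1 were not analysed here.

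Eukaryotic cells license origins in G1 by loading the MCM2 to MCM7 helicase ring with the origin recognition complex, CDC6 and CDT1. At the start of S phase the kinase CDC7 and cyclin E with CDK2 fire these origins by joining CDC45 and the GINS complex to the helicase. Polymerases alpha, delta and epsilon then copy the strands. Most of these genes are transcribed in late G1 from promoters bound by E2F factors, of which E2F1, E2F2 and E2F3 activate and E2F7 and E2F8 repress.

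Since the genes were listed by function, their promoters were read first for the word that E2F factors bind. The table of RefSeq promoters (GRCh38.p14, 250 bases before to 50 bases after each annotated start, the first listed start of each gene) held 46 of the 54. The E2F word was searched on both strands as TTTCCCGC, TTTCGCGC, TTTGCCGC and TTTGGCGC. It was present in 22 of the 46 promoters (47.8%), against 3.33% of the 27305 promoters in the table and 5.64% of the 8531 promoters of genes tested in SHEP-21N cells. The E-box CACGTG, a word bound by MYC proteins, was present in 7 of the 46 (15.2%), against 7.43% of all promoters and 10.5% of those of tested genes. The CCAAT box was present in 28 (60.9%), against 35.7% of all promoters and 37.3% of those of tested genes. The CHR word of late cell cycle promoters, TTTGAA or TTCGAA, was present in 3 (6.52%), against 16.6% of all promoters and 10.9% of those of tested genes. These shares are a description of letters in a window and not of binding.

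**Figure D1:**
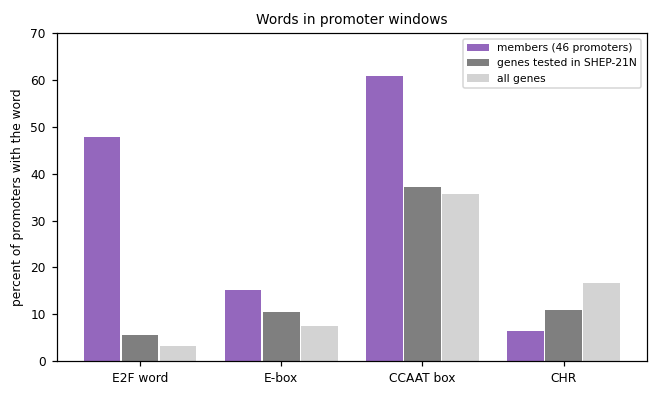
Percent of promoter windows that hold each word, for the 46 replication and E2F genes in the promoter table, for genes tested in SHEP-21N cells and for all genes of the table. The E2F word stands at 47.8% in the first set, 5.64% for tested genes and 3.33% over all genes. The CHR word stands at 6.52%, 10.9% and 16.6% in the same order.

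A few of these promoters are printed for genes whose transcripts are followed through both experiments, as the gene's own strand from 5′ to 3′, with E2F words and E-boxes in capitals. MCM2 (chr3:127598161-127598460, plus strand) has an E-box followed by a run in which E2F words of both strands overlap, and MCM6 (chr2:135876394-135876693, minus strand) has 2 such overlapping runs. E2F1 (chr20:33686336-33686635, minus strand) has 2 separate E2F words, while CDT1 (chr16:88803539-88803838, plus strand) and UHRF1 (chr19:4909251-4909550, plus strand) have 1 each.
MCM2: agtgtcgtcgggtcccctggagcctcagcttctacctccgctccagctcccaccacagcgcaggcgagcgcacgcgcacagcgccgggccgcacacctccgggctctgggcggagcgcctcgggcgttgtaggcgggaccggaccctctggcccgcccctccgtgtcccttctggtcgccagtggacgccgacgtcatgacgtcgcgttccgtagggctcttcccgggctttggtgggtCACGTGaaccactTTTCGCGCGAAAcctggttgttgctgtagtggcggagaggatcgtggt
MCM6: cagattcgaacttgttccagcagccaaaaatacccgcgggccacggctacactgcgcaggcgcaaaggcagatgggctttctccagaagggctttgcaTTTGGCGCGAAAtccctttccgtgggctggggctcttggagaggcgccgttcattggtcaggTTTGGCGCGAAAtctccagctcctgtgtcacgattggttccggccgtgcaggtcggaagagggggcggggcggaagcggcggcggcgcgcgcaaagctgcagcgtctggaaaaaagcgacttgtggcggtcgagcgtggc
E2F1: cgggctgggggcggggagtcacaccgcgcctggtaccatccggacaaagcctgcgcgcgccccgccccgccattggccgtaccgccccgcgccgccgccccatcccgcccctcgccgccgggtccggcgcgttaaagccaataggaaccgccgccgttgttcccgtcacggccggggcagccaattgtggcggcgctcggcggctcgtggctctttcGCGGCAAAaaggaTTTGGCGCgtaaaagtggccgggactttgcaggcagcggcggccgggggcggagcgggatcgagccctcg
CDT1: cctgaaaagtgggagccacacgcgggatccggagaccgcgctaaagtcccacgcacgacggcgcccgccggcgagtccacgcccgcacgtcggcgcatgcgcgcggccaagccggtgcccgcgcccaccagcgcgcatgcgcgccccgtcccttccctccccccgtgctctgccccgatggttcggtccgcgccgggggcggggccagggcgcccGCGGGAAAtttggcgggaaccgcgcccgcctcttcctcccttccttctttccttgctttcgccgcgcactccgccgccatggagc
UHRF1: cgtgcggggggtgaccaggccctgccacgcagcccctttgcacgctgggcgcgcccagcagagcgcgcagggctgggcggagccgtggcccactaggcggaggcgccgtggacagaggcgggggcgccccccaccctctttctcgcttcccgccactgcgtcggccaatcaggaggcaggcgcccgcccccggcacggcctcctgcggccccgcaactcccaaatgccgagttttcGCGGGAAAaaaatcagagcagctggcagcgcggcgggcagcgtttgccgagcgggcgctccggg
Counted from 1 at the 5′ end of the window, the words start at position 240 (E-box), 253 and 257 in MCM2, at 99, 103, 161 and 165 in MCM6, at 218 and 231 in E2F1, at 216 in CDT1 and at 237 in UHRF1.

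Abundance was deposited as FPKM on 2 scales. Unnormalised FPKM give a transcript as part of the library's total. Rescaled FPKM were set by the authors to the ERCC spike-in RNAs, which were added at lysis to cells that had been counted, and so also carry changes in RNA per cell. In bulk RNA, fewer cells of a kind and less RNA per cell cannot be told apart. Tests were made with limma on log2(FPKM + 1) over all 11867 genes tested in SHEP-21N cells and all 11433 in BE(2)-C cells, with a call at a Benjamini-Hochberg adjusted p under 0.05. Values after ± are standard errors for log2 differences. Libraries are named by the number 0, 1 or 2 in their column. The labels do not say that replicates came from separate cultures, so p-values measure the spread between these libraries.

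The targeted genes checked the labels. MYCN stood at 17.3, 13.9 and 11.2 rescaled FPKM at 24 h, against 723 and 855 at 0 h, and had already reached 188, 143 and 145 at 2 h. TWIST1 stood at 7.65, 11.2 and 4.60 rescaled FPKM at 48 h, against 91.8, 70.3 and 82.0 with no doxycycline. SHEP-21N cells expressed all 8 mesenchymal markers examined, with VIM at 385 to 516 and PRRX1 at 24.7 to 49.4 unnormalised FPKM, and lacked most adrenergic neuroblastoma markers, with TH at 0.0450 or less, while HAND2 and ISL1 were present. BE(2)-C cells expressed all 8 adrenergic markers, with TH at 44.7 to 81.4 unnormalised FPKM. In SHEP-21N cells the summed mesenchymal markers ranged from 664 to 742 unnormalised FPKM at 6 h and from 827 to 877 at 24 h, against 839 to 883 at 0 h, and the 4 fibroblast markers summed to 104 to 108 at 24 h, against 82.7 to 87.9 at 0 h. The 4 epithelial markers, of which 1 (KRT18) was present, summed to 283 to 332 at 6 h and 499.6 to 525 at 24 h, against 396 to 459.6 at 0 h. In BE(2)-C cells the summed adrenergic markers ranged from 839 to 864 at 48 h, against 693 to 869.7 with no doxycycline, the mesenchymal markers (VIM and TWIST1 present) from 111 to 120.2, against 135 to 169.7, a sum that holds TWIST1, the hairpin's own target, the fibroblast markers from 151 to 161, against 183 to 231, and the epithelial markers from 11.4 to 13.2, against 8.37 to 13.1. VIM alone averaged 97.6 ± 4.69 unnormalised FPKM at 48 h, against 81.6 ± 11.4 with no doxycycline (SD, n = 3 each). The part of these markers in the results below was not tested. The 4 blood markers summed to at most 0.116 unnormalised FPKM in SHEP-21N cells and to at most 0.313 in BE(2)-C cells, except 1 library of 3 h of doxycycline with 38.5, nearly all of it haemoglobin beta.

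On the scale per transcript length, the replication genes spanned a wide range of levels in both lines. In SHEP-21N cells MCM7, a helicase subunit, had the highest mean of the 54 at 278 ± 42.4 unnormalised FPKM (SD over 20 libraries), followed by the clamp PCNA at 258 ± 37.5. The catalytic subunit of polymerase alpha, POLA1, had the lowest at 5.83 ± 0.963. Of the 54 in BE(2)-C cells PCNA stood highest at 384 ± 26.5 (SD over 18 libraries) and MCM7 next at 222 ± 19.5, while the repressors E2F7 and E2F8 stood lowest, both at 5.03. In SHEP-21N cells the means of MCM7 and PCNA differed by less than their spread over libraries, which was not so in BE(2)-C cells. PCNA and MCM7 were the most abundant pair in both lines.

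After MYCN shutdown, on unnormalised values, many replication transcripts rose relative to other transcripts by 6 h. Many, not all of them the same genes, were below their starting level by 24 h. Rescaled values were the planned scale. On them 3 of the 54 genes (5.56%) were higher at 6 h than at 0 h, when 3.17% of all tested genes were. On unnormalised values 26 of the 54 genes (48.1%) were higher and 8 (14.8%) lower at 6 h than at 0 h, when 26.8% of all tested genes were higher and 29.8% lower. At 24 h against 6 h, 0 of the 54 were higher and 48 (88.9%) lower, when 18.0% of all tested genes were higher and 25.0% lower. All 54 had a lower mean at 24 h than at 6 h, on both scales. The group mean of unnormalised FPKM was highest at 6 h for 32 of the 54 genes and lowest at 24 h for 39. Cyclin E2, E2F2, MCM10, PCNA and MCM6 rose at 6 h, while CDT1 and the polymerase subunits POLD1, POLD2 and POLE were already lower there. Of these named risers, PCNA alone was called lower at 24 h than at 0 h, and MCM6 and cyclin E2 were called higher.

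Against 0 h on unnormalised values, 1 gene was higher and 0 lower at 2 h (0.236% and 0.345% of all tested genes). At 4 h 14 genes were higher and 4 lower (15.8% and 18.1% of all). The split evened out at 8 h, with 13 higher and 13 lower (25.0% and 29.2% of all). At 16 h 4 were higher and 23 lower (23.8% and 27.5% of all), and at 24 h 4 were higher and 39 lower (28.9% and 36.4% of all). The median log2 difference of the 54 genes was 0.17 at 6 h, when that of all tested genes was -0.02, and -0.27 at 24 h, when that of all was -0.04. Between 24 and 6 h, which uses no 0 h library, it was -0.45 over the 54 genes and -0.04 over all tested genes. Of the 26 genes higher at 6 h, 16 were called higher in each of the 5 fits that left out 1 library of the comparison, and of the 8 lower, 4 were called lower in each. The number lower at 6 h was 4 without 0 h library 2. At 4 h the higher count was 3 without 0 h library 2, 8 without 4 h library 1 and 9 without 4 h library 0. The lower count at 4 h was 0 without 0 h library 2 or 4 h library 1, 2 without 4 h library 0 and 11 without 4 h library 2. At 8 h the higher count was 6 without 0 h library 2. The higher count at 16 h was 2 without that library and 7 without 6 h library 2, and that at 24 h was 1 without 0 h library 2. Between 24 and 6 h, 43 of the 48 were called lower in each of 6 such fits.

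On rescaled values fewer genes passed. At 2, 4 and 16 h limma called 0 of the 54 in either direction, with 0, 4 and 8 genes at an unadjusted p under 0.05. Of all tested genes 0% were called higher and 0.0506% lower at 2 h, 0.00843% and 0.0758% at 4 h, and 5.13% and 3.04% at 16 h. At 6 h 3 genes were higher and 0 lower (3.17% and 7.54% of all tested genes), and at 8 h 2 were higher and 0 lower (3.92% and 3.83% of all). At 24 h 29 genes were lower and 0 higher (32.4% and 6.16% of all). The median log2 difference at 24 h was -0.55 over the 54 genes and -0.31 over all tested genes. The count of 29 was 1 without 0 h library 2 and 19 without 24 h library 2. Between 24 and 6 h 21 genes were lower and 0 higher (3.15% and 1.59% of all). That count was 46 without 24 h library 0, and 3 or 4 without any other library of 6 or 24 h. Between 24 and 16 h 11 genes were lower and 0 higher (7.63% and 0.244% of all), and this count was 33 without 16 h library 0, 36 without 24 h library 0, 0 without any other library of those times, and 6 to 12 without a library of another time. Between 6 and 2 h MCM10 and CCNE2 were higher (1.58% of all tested genes higher and 4.36% lower), and between 16 and 8 h E2F2 and CCNE2 were lower (0.455% lower and 2.01% higher).

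**Figure D2:**
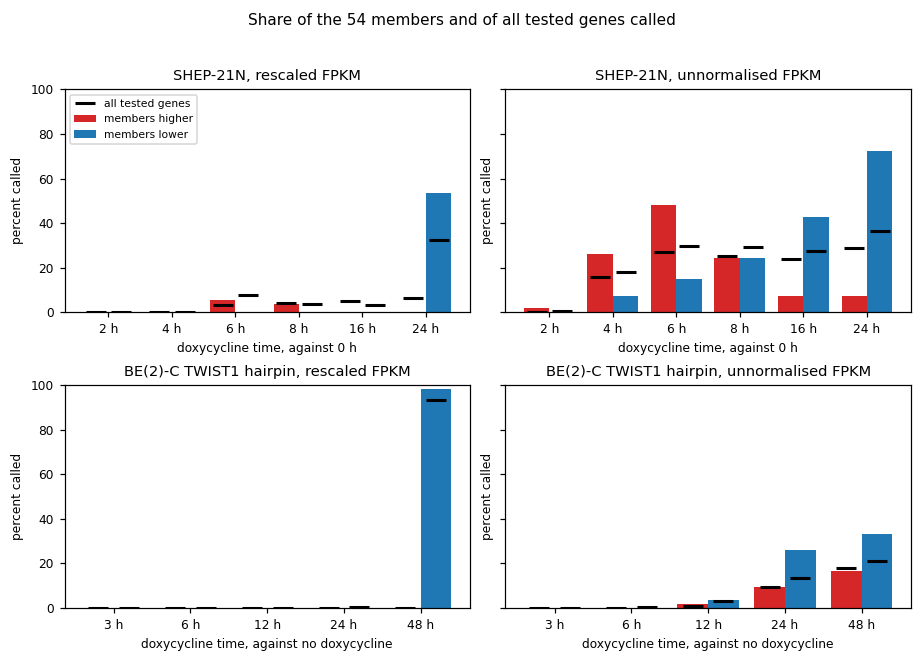
Percent of the 54 genes called higher (red) or lower (blue) at each doxycycline time against 0 h or no doxycycline, on rescaled (left) and unnormalised FPKM (right), with black marks for all tested genes. On unnormalised values the red bar leads at 4 and 6 h in SHEP-21N cells (26 genes at 6 h) and the blue bar at 16 and 24 h (39 genes at 24 h).

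Within the 54 genes 1 library of the 6 h group stood apart. The median log2 level of the 54 genes, less that of all tested genes, was 1.58 and 1.63 in 6 h libraries 0 and 1 and 1.39 in library 2, against 1.40 and 1.48 at 0 h, on unnormalised values. In library 2 RFC1, MCM8, POLA1 and MCM10 were above the other 6 h libraries and CDT1, POLD2 and POLD1 below them, and 4 h library 1 and 0 h library 1 stood on the same side of their groups. The part of this in the results at 6 h was not tested beyond leaving out each library: without 6 h library 2 the rescaled count of genes higher at 6 h was 1, and it was also 1 without 0 h library 2.

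The licensing genes held the largest fall of all 54. The rescaled calls at 24 h against 0 h given for single genes here and below rest on 2 libraries at 0 h. Nearly all of them were lost without 0 h library 2. CDT1, which loads the helicase and is held in check by geminin, stood at 24.1, 21.0 and 14.8 rescaled FPKM at 24 h, against 41.9 and 54.7 at 0 h. Every 24 h library lay below both 0 h libraries, and the log2 difference was -1.25 ± 0.24 (limma adjusted p = 0.00124). On unnormalised values it was already lower at 6 h, with a log2 difference of -0.28 ± 0.11 (limma adjusted p = 0.0446), a call that was lost without 0 h library 2 or without 6 h library 2, and at 24 h it was -0.97 ± 0.11. ORC6, the smallest subunit of the origin recognition complex, stood at 26.9, 21.2 and 17.7 rescaled FPKM at 24 h, against 39.1 and 41.0 at 0 h, a log2 difference of -0.86 ± 0.19 (limma adjusted p = 0.00291). Its levels at 16 h, 30.0, 47.5 and 38.4, overlapped those of 0 h.

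Of the 14 licensing genes, 7 were lower at 24 h on rescaled values, and 10 were lower and 1 higher on unnormalised values. Calls differed among the subunits of the helicase ring, a difference that was not itself tested. MCM7 fell at 24 h to 244, 195 and 146 rescaled FPKM, against 291 and 366 at 0 h (-0.77, limma adjusted p = 0.02), and MCM2 to 90.7, 75.1 and 54.7, against 113 and 143 (-0.81, limma adjusted p = 0.0174). MCM6 had 51.1, 40.4 and 31.7 rescaled FPKM at 24 h and 41.5 and 43.1 at 0 h, with overlapping groups and no call (-0.07 ± 0.20, limma adjusted p = 0.81). On unnormalised values MCM6 was higher at 24 h by 0.21 ± 0.06 (limma adjusted p = 0.00734), a call lost without 0 h library 2, while MCM2 and MCM7 were lower, with log2 differences of -0.54 ± 0.09 and -0.50 ± 0.07. At 6 h, MCM6 had 54.2, 52.1 and 58.8 unnormalised FPKM, against 40.6 and 37.2 at 0 h (0.49 ± 0.06, limma adjusted p = 1.99e-05), and its 3 libraries lay above both 0 h libraries. CDC6, which recruits the helicase to the origin complex, rose alongside it at 6 h by 0.49 ± 0.07 (limma adjusted p = 5.68e-05) and was back at -0.02 ± 0.07 at 24 h, with no call.

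Among the origin firing genes MCM10, which helps to activate the helicase, and CDC45, a subunit of the active helicase, took different courses. MCM10 had 16.4, 15.7 and 19.6 rescaled FPKM at 6 h, against 12.1 and 11.1 at 0 h, and rose by 0.53 ± 0.16 on the log2 scale (limma adjusted p = 0.0416). MCM10 was highest in 6 h library 2, without which fewer genes were called higher at 6 h on rescaled values. At 24 h it stood at 13.3, 11.3 and 9.52, overlapping 0 h, with no call. CDC45 had 36.8, 28.8 and 21.8 rescaled FPKM at 24 h, against 48.2 and 59.1 at 0 h, below both, and fell, with a log2 difference of -0.88 ± 0.22 (limma adjusted p = 0.00555). At 16 h CDC45 still overlapped 0 h, at 39.4, 63.1 and 48.5. Of the 7 genes of this group 4 were lower at 24 h on rescaled values and 5 on unnormalised values, the GINS subunits among them. GINS1 was lower at 6 h as well on unnormalised values, with a log2 difference of -0.20 ± 0.05 (limma adjusted p = 0.00315), while the kinase CDC7 was higher by 0.51 ± 0.15 (limma adjusted p = 0.0101), a call lost without 0 h library 2 or 6 h library 2. MCM8, which acts with MCM9 in recombination, had 9.91, 8.45 and 7.35 rescaled FPKM at 24 h and 9.89 and 8.01 at 0 h and was not called at 24 h on either scale.

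The polymerases divided by subunit. POLD1 and POLE, the catalytic subunits of polymerases delta and epsilon, were lower at both 6 and 24 h. POLD1 had 30.1, 24.8 and 18.9 rescaled FPKM at 24 h, against 43.9 and 56.9 at 0 h (-1.02 ± 0.23, limma adjusted p = 0.00286). POLE had 13.2, 12.0 and 9.03 at 24 h, against 20.3 and 24.5 at 0 h (-0.93 ± 0.19, limma adjusted p = 0.00211). In both genes every 24 h library lay below both 0 h libraries. The accessory subunits POLA2 and POLD2 followed them, with POLA2 at 36.3, 27.6 and 21.7 rescaled FPKM at 24 h, against 50.2 and 60.5 at 0 h (-0.96 ± 0.23, limma adjusted p = 0.00472). These 4 genes were also lower at 6 h on unnormalised values, with log2 differences of -0.47 ± 0.09 for POLD2, -0.37 ± 0.07 for POLE, -0.37 ± 0.09 for POLD1 and -0.31 ± 0.07 for POLA2 (limma adjusted p = 5.71e-04, 7.56e-04, 0.002 and 0.00219). The POLD1 call at 6 h was lost without 0 h library 2.

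Other subunits of the same enzymes were higher at 6 h. POLE2 and POLD3, which belong to polymerases epsilon and delta, were higher by 0.35 ± 0.07 and 0.44 ± 0.09 (limma adjusted p = 0.00124 and 6.11e-04), and POLA1 and the primase subunit PRIM1 were higher too, with calls that were lost without 0 h library 2 for POLA1, and without 0 h library 1 or 6 h library 2 for PRIM1. POLA1 had 5.77, 4.76 and 4.29 rescaled FPKM at 24 h and 5.68 and 5.04 at 0 h, which overlapped, with no call on either scale. Of the 9 polymerase and primase genes 7 were lower at 24 h on rescaled values and 7 on unnormalised values.

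PCNA, the sliding clamp, rose at 6 h and was lower at 24 h on unnormalised values. It had 309.6, 333 and 328 unnormalised FPKM at 6 h, against 245 and 249 at 0 h (0.39 ± 0.04, limma adjusted p = 5.95e-06), and 217, 206 and 207 at 24 h (-0.24 ± 0.04 against 0 h, limma adjusted p = 2.04e-04). RFC1, the large subunit of the clamp loader, had 17.2, 14.8 and 21.1 rescaled FPKM at 6 h, against 11.3 and 8.69 at 0 h, and rose by 0.76 ± 0.19 on the log2 scale (limma adjusted p = 0.0197). RFC1 too was highest in 6 h library 2, without which fewer genes were called higher at 6 h on that scale. It was also called at 8 h, at 0.65 ± 0.19 (limma adjusted p = 0.0424). At 24 h RFC1 stood at 15.5, 12.9 and 10.96 with no call, and on unnormalised values it was higher by 0.64 ± 0.17, a call lost without 0 h library 2, in which RFC1 was lowest. RFC4, a small loader subunit, was higher at 6 h by 0.49 ± 0.07 on unnormalised values (limma adjusted p = 3.00e-05) and was not called at 24 h on either scale. RFC5, another small subunit, had 22.2, 18.1 and 13.7 rescaled FPKM at 24 h, against 29.9 and 35.1 at 0 h, and fell, with a log2 difference of -0.84 ± 0.20 (limma adjusted p = 0.00431). Of the 6 clamp and loader genes 2 were lower at 24 h on rescaled values, and 4 were lower and 1 higher on unnormalised values.

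At the lagging strand, RPA2, a subunit of the protein that coats single-stranded DNA, had 64.6, 49.4 and 40.0 rescaled FPKM at 24 h, against 85.3 and 105 at 0 h (-0.90 ± 0.21, limma adjusted p = 0.00421). Its partner RPA1 had 46.3, 37.0 and 29.6 at 24 h and 44.5 and 49.2 at 0 h, with overlap and no call (-0.33 ± 0.20, limma adjusted p = 0.181). On unnormalised values RPA1 was not called either (-0.05 ± 0.04), while RPA2 was lower, with a log2 difference of -0.62 ± 0.05. FEN1, which trims Okazaki fragments, was lower at 24 h on both scales (-0.88 ± 0.24 rescaled, -0.60 ± 0.06 unnormalised), and the ligase LIG1 was lower on unnormalised values, at -0.27 ± 0.08, a call lost without 0 h library 2.

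The subunits of ribonucleotide reductase, which makes deoxynucleotides, were also called differently. RRM2, the subunit whose level follows the cell cycle, had 111, 91.4 and 68.4 rescaled FPKM at 24 h, against 146 and 169 at 0 h (-0.82 ± 0.22, limma adjusted p = 0.00818). RRM1 had 129, 98.2 and 76.1 at 24 h and 99.2 and 97.1 at 0 h, with no call (0.01 ± 0.21, limma adjusted p = 0.986). At 6 h on unnormalised values RRM1 was higher by 0.42 ± 0.09 and RRM2 lower, with a log2 difference of -0.13 ± 0.04 (limma adjusted p = 0.00158 and 0.0101), and the RRM2 call was lost without 0 h library 2.

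CCNE2, a cyclin E that drives entry into S phase, had the largest rise of the 54 at 6 h on both scales. It had 21.6, 20.3 and 23.3 rescaled FPKM at 6 h and 19.6, 20.5 and 18.1 at 8 h, against 8.90 and 10.0 at 0 h. The 6 libraries of those times lay above both 0 h libraries, by 1.12 ± 0.16 at 6 h and 0.96 ± 0.16 at 8 h as log2 differences (limma adjusted p = 7.90e-04 and 0.00315). At 24 h CCNE2 had 12.7, 10.6 and 8.55, -0.98 ± 0.15 against 6 h (limma adjusted p = 0.00171). CCNE1, the other cyclin E, rose less and ended lower. It had 21.7, 21.9 and 19.6 unnormalised FPKM at 6 h, against 17.2 and 19.2 at 0 h (0.20 ± 0.08, limma adjusted p = 0.0437), a call lost without any 1 of 0 h library 1 and 6 h libraries 0 and 1. On rescaled values CCNE1 had 13.5, 10.7 and 8.62 at 24 h, against 17.9 and 22.4 at 0 h (-0.83 ± 0.22, limma adjusted p = 0.00729).

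The E2F genes showed the earliest call, on unnormalised values only. E2F2 had 7.71, 6.80 and 6.99 unnormalised FPKM at 2 h, against 4.68 and 5.34 at 0 h, and was the 1 gene called at 2 h on that scale, a call that was lost without any 1 of 4 of the 5 libraries compared. At 6 h it had 9.02, 9 and 7.92 (0.68 ± 0.09 against 0 h, limma adjusted p = 2.16e-05) and at 16 h 3.64, 3.21 and 3.27, below both 0 h libraries (-0.46 ± 0.09, limma adjusted p = 5.11e-04). By 24 h it was at 5.23, 6.17 and 5.33, overlapping 0 h with no call. E2F1 was not called at 6 h. It had 23.9, 19.3 and 15.3 rescaled FPKM at 24 h, against 30.3 and 39.1 at 0 h (-0.81 ± 0.22, limma adjusted p = 0.00876), and its log2 difference at 6 h on unnormalised values was 0.01 ± 0.08. The repressors E2F7 and E2F8 were higher at 6 h by 0.19 ± 0.05 and 0.26 ± 0.07 on unnormalised values (limma adjusted p = 0.00341 and 0.00445), the call of E2F8 being lost without 0 h library 2. At 24 h on rescaled values 4 of the 5 E2F genes were lower, E2F2 being the exception.

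Chromatin assembly genes closed the set. CHAF1A, the large subunit of the factor that deposits histones behind the fork, had 25.7, 22.0 and 17.2 rescaled FPKM at 24 h, against 36.6 and 45.6 at 0 h (-0.91 ± 0.21, limma adjusted p = 0.00416). UHRF1, which guides DNA methylation onto newly copied DNA, had 65.6, 55.6 and 42.6 at 24 h, against 66.3 and 79.2 at 0 h, with all 3 libraries below both 0 h libraries, and was not called (-0.42 ± 0.22, limma adjusted p = 0.128). On unnormalised values UHRF1 was higher at 6 h by 0.30 ± 0.05 (limma adjusted p = 3.22e-04) and lower at 24 h, with a log2 difference of -0.15 ± 0.05 (limma adjusted p = 0.0234), the second call being lost without 0 h library 2 or 24 h library 0 or 2.

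**Figure D3:**
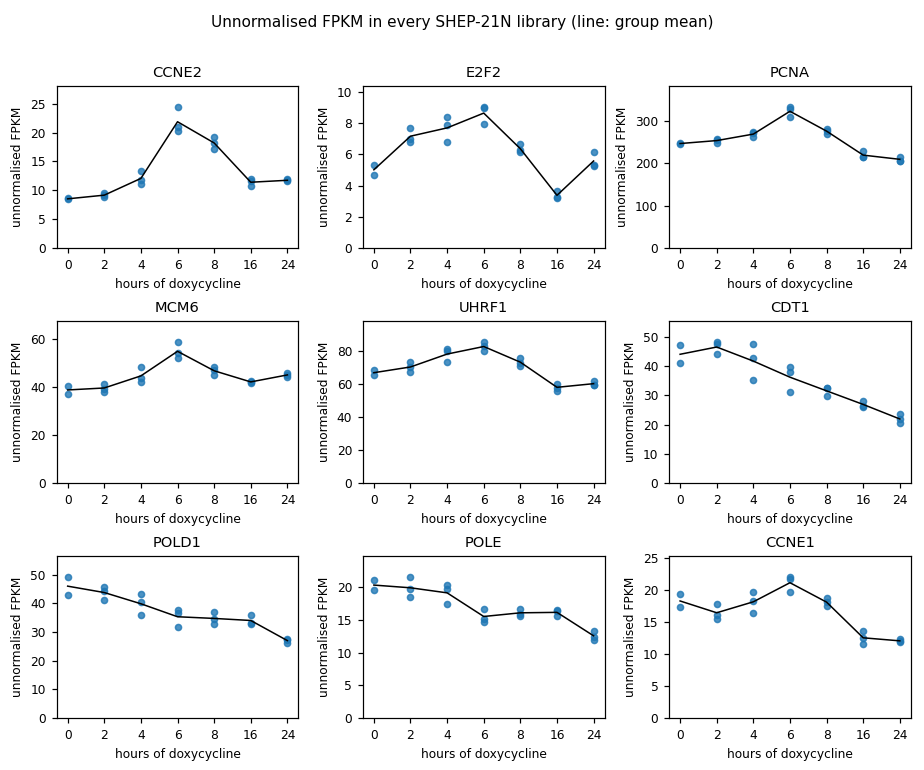
Unnormalised FPKM of 9 genes in every SHEP-21N library (points) with the group mean (line), with times evenly spaced on the axis and not to scale. CCNE2, E2F2, PCNA, MCM6, UHRF1 and CCNE1 have their highest mean at 6 h, while CDT1, POLD1 and POLE decline to 24 h.

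The promoter words were also counted by the call at 6 h. Of the genes higher at 6 h on unnormalised values, 21 had a listed promoter and 10 of these (47.6%) held an E2F word, while of the 8 lower genes 4 held one, and of the 17 with no call 8 (47.1%). An E-box was present in 1 of the 21 higher genes (GMNN, 4.76%), in 1 of the 8 lower genes (FEN1) and in 5 of the 17 with no call (29.4%). The CCAAT box was present in 14, 4 and 10 of these promoters and the CHR word in 2, 0 and 1. These counts were made after the calls were known and carry no test.

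Genes of the same pathway outside the 54 were followed as lists. Of 23 other replication genes 11 were higher and 4 lower at 6 h than at 0 h on unnormalised values, and of 24 other E2F target genes 13 were higher and 2 lower, with medians of 0.14 and 0.28 when all tested genes had -0.02 and 26.8% of them were higher and 29.8% lower. At 24 h against 6 h the same lists had 1 higher and 16 lower, and 0 higher and 19 lower, with medians of -0.29 and -0.39, when 18.0% of all tested genes were higher and 25.0% lower. The mismatch repair gene MSH6 led the E2F targets at 6 h, at 44.8 ± 6.52 unnormalised FPKM, against 21.9 ± 2.41 at 0 h (SD, n = 3 and 2), a log2 difference of 1.00 ± 0.11. TICRR, which helps to fire origins, was lower at 6 h, with a log2 difference of -0.62 ± 0.07, and the histone mRNA binding gene SLBP was higher by 0.43 ± 0.05. The mitosis list of 24 genes had 9 higher and 9 lower at 6 h (26.8% and 29.8% of all tested genes) and 5 higher and 13 lower at 24 h (28.9% and 36.4% of all), both against 0 h. At 24 h UBE2C, a ubiquitin-conjugating enzyme of mitotic exit, was at 169 ± 11.6 unnormalised FPKM, against 483 ± 37.0 at 0 h.

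Of 13 genes for partners of E2F factors 5 were higher and 3 lower at 6 h than at 0 h on unnormalised values (26.8% and 29.8% of all tested genes), and 3 were higher and 6 lower at 24 h (28.9% and 36.4% of all). E2F5, a factor that works with pocket proteins, was at 7.35 ± 0.407 unnormalised FPKM at 6 h and 6.97 ± 0.485 at 24 h (SD, n = 3), against 19.4 ± 0.600 at 0 h (SD, n = 2). E2F4 and the dimer partner TFDP1 were lower at 24 h, with log2 differences of -0.79 ± 0.08 and -0.64 ± 0.04. The pocket protein genes RB1 and RBL2, which hold E2F factors in check, were higher at 24 h by 0.55 ± 0.14 and 0.65 ± 0.09 (limma adjusted p = 0.00241 and 8.50e-06) and were named after their values were seen. Of 10 tested G1 cyclins, kinases and inhibitors 4 were higher and 4 lower at 24 h, beside the same shares of all tested genes. Cyclin D1 (CCND1) was at 16.9 ± 0.926 unnormalised FPKM at 24 h, against 52.5 ± 0.429 at 0 h (-1.58 ± 0.06).

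**Figure D4:**
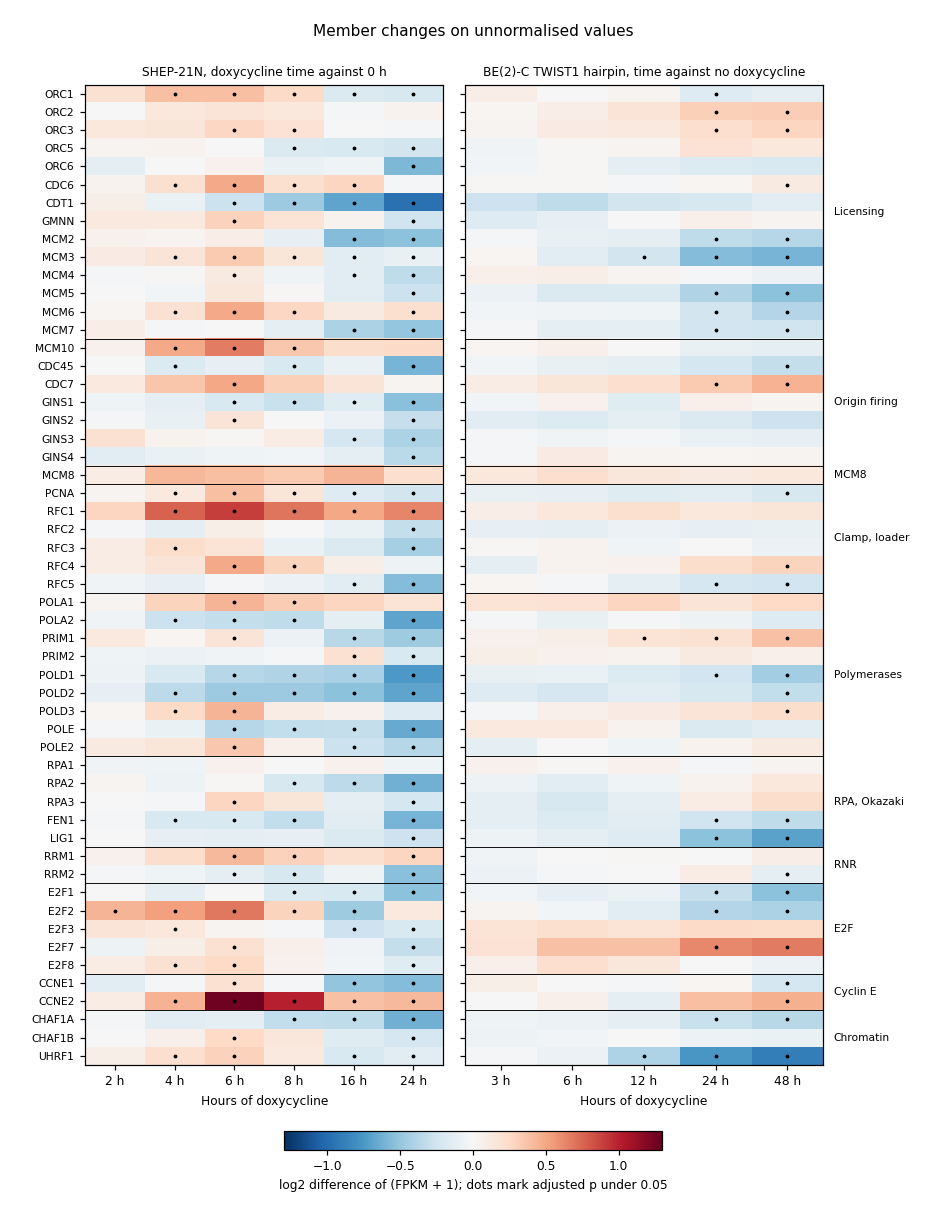
Log2 difference of each of the 54 genes at each doxycycline time against 0 h (SHEP-21N, left) or no doxycycline (BE(2)-C, right) on unnormalised values, in colour, with dots for adjusted p under 0.05 and genes grouped by role. Of the 54 genes in SHEP-21N cells 26 carry a dot for a rise at 6 h and 39 for a fall at 24 h, while in BE(2)-C cells the darkest blue at 48 h is in UHRF1, LIG1, MCM3, MCM5 and E2F1.

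In BE(2)-C cells with the TWIST1 hairpin, no replication transcript passed the test at 3 or 6 h of doxycycline, and a subset fell at 24 and 48 h relative to other transcripts. The largest falls were in UHRF1, LIG1, MCM3, MCM5 and E2F1, while E2F7, CCNE2, CDC7 and PRIM1 rose. On unnormalised values 18 of the 54 were lower and 9 higher at 48 h than with no doxycycline (21.3% and 18.1% of all tested genes). At 24 h 14 were lower and 5 higher (13.6% and 9.55% of all), at 12 h 2 lower and 1 higher (3.33% and 0.752% of all), and at 3 and 6 h limma called 0 in either direction, with 1 and 7 genes at an unadjusted p under 0.05 (0% of all tested genes higher and 0.0175% lower at 3 h, 0.00875% and 0.472% at 6 h). Of the 18 lower genes 15 were called in each of 6 fits that left out 1 library of the comparison, and of the 9 higher genes 6. The higher counts were 14 at 48 h and 12 at 24 h without no-doxycycline library 1, and 8 at 24 h without no-doxycycline library 0. At 12 h the lower count was 6 without no-doxycycline library 1, and the higher count was 0 without 12 h library 1 or 2.

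On rescaled values the share of the 54 genes called at 48 h was close to that of all genes. Of the 54, 53 were lower and 0 higher at 48 h than with no doxycycline (93.3% and 0.131% of all tested genes). Against 24 h, 54 were lower and 0 higher at 48 h (92.3% and 0.122% of all). The median log2 difference at 48 h against no doxycycline was -1.62 over the 54 genes and -1.36 over all tested genes. The spike-in RNAs summed to 57913 to 140361 unnormalised FPKM at 48 h, against 21429 to 36863 with no doxycycline, and whether the amount added or the RNA per cell differed cannot be told apart. At 3, 6, 12 and 24 h limma called 0 of the 54 on this scale, with 1, 0, 0 and 3 at an unadjusted p under 0.05. Of all tested genes 0.0175% were higher at each of these times, and 0.0175% were lower at 3 and 6 h, 0.0262% at 12 h and 0.586% at 24 h.

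No-doxycycline library 1 stood apart from the other untreated libraries in individual genes. Its unnormalised FPKM were 13.1 for MCM8, 17.9 for RFC1 and 2.07 for E2F7, while the other untreated libraries had 23.5 and 24.1, 26.4 and 26.5, and 4.39 and 4.74. It was the highest of the 3 for CDT1 at 47.9 and for POLD2 at 204. The higher counts at 24 and 48 h and the lower count at 12 h without that library are given above. At 48 h every gene called lower with all libraries was still called lower without it. MCM4, MCM10, E2F8, POLE and RFC3 were then called lower as well. The lower count at 24 h without it is not reported here.

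UHRF1 had the largest fall of the 54 on both scales. It stood at 38.5, 41.0 and 36.6 unnormalised FPKM at 48 h, against 75.9, 66.7 and 75.9 with no doxycycline, at 43.0, 41.6 and 43.7 at 24 h and at 56.0, 54.8 and 53.4 at 12 h. Every library from 12 h on lay below the untreated ones, with log2 differences of -0.40 ± 0.06 at 12 h, -0.75 ± 0.06 at 24 h and -0.90 ± 0.06 at 48 h (limma adjusted p = 6.42e-04, 2.68e-07 and 2.20e-08). On rescaled values it stood at 15.4, 25.4 and 9.38 at 48 h, against 121, 63.1 and 100.03 (-2.48 ± 0.37, limma adjusted p = 6.46e-06). CHAF1A fell less, to 33.3, 33.1 and 33.9 unnormalised FPKM at 48 h, against 41.7, 45.8 and 42.0 (-0.36 ± 0.05, limma adjusted p = 3.34e-05).

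Among helicase subunits MCM3 and MCM5 had the largest falls. MCM3 stood at 121, 118 and 121 unnormalised FPKM at 48 h, against 184, 187 and 179 with no doxycycline (-0.61 ± 0.04, limma adjusted p = 5.68e-08), and was already lower at 12 h, with a log2 difference of -0.23 ± 0.04. MCM5 stood at 89.0, 88.8 and 94.2, against 127, 152 and 119 (-0.54 ± 0.07, limma adjusted p = 1.78e-05), and MCM2 at 107, 109.6 and 112, against 139, 149 and 137 (-0.37 ± 0.04, limma adjusted p = 6.91e-06). The 48 h libraries of these subunits lay below the untreated ones without overlap. MCM4 was not called on this scale (-0.08 ± 0.06), though it was called lower without no-doxycycline library 1. The origin complex genes ORC2 and ORC3 were higher by 0.32 ± 0.07 and 0.28 ± 0.05. CDT1, which fell most after MYCN shutdown, had 33.5, 34.2 and 33.3 unnormalised FPKM at 48 h and 32.5, 47.9 and 32.5 with no doxycycline, with overlap and no call (-0.13 ± 0.11, limma adjusted p = 0.342).

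At the fork, LIG1 stood at 16.0, 14.9 and 16.6 unnormalised FPKM at 48 h, against 25.3, 29.3 and 24.5 with no doxycycline (-0.70 ± 0.07, limma adjusted p = 1.12e-06), and POLD1 at 17.5, 17.9 and 18.5, against 22.5, 30.4 and 22.4 (-0.45 ± 0.09, limma adjusted p = 8.01e-04). E2F1 stood at 46.2, 43.5 and 45.0, against 58.7, 79.5 and 60.5 (-0.54 ± 0.09, limma adjusted p = 1.87e-04). In these genes as well the 48 h libraries lay below all untreated ones. Upward, the primase subunit PRIM1 was higher by 0.38 ± 0.04 and the kinase CDC7 by 0.46 ± 0.08 (limma adjusted p = 3.63e-06 and 5.88e-04). E2F7 had 6.66, 6.20 and 6.01 unnormalised FPKM at 48 h, against 4.39, 2.07 and 4.74 with no doxycycline (0.68 ± 0.16, limma adjusted p = 0.00393), and was still called in each fit that left out 1 library, with log2 differences of 0.39 to 0.84. It was the 1 gene of the 54 not called lower at 48 h on rescaled values. CCNE2 was higher by 0.46 ± 0.14 (limma adjusted p = 0.0171), a call lost without 48 h library 0 or 1.

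The 54 genes were set side by side in both experiments, which share no library. Of the 39 genes lower at 24 h in SHEP-21N cells and the 18 lower at 48 h in BE(2)-C cells on unnormalised values, 16 were lower in both, which is 41.0% of the first list and 88.9% of the second. Of the 54 genes, 72.2% were lower in SHEP-21N and 33.3% in BE(2)-C cells. Over the 10298 genes tested in both experiments, 4012 were lower in SHEP-21N cells, 2192 in BE(2)-C cells and 1086 in both, which is 27.1% and 49.5% of those lists. The 16 genes of the 54 lower in both were CCNE1, CDC45, CHAF1A, E2F1, FEN1, LIG1, MCM2, MCM3, MCM5, MCM7, PCNA, POLD1, POLD2, RFC5, RRM2 and UHRF1. In BE(2)-C cells the calls of PCNA, POLD2 and RRM2 were lost in some fits that left out 1 library. Of the 39 genes lower in SHEP-21N cells, 30 were called in each of 5 such fits. The calls of LIG1 and UHRF1 there were lost without 0 h library 2. On unnormalised values MCM6 was higher in SHEP-21N and lower in BE(2)-C cells, PRIM1 and E2F7 were lower in SHEP-21N and higher in BE(2)-C cells, and CCNE2 was higher in both. The CCNE2 call in BE(2)-C cells was lost without 48 h library 0 or 1, and the MCM6 call in SHEP-21N cells without 0 h library 2. On rescaled values MCM6 and CCNE2 were not called at 24 h in SHEP-21N cells. At 48 h in BE(2)-C cells MCM6, PRIM1 and CCNE2 were lower on that scale, and E2F7 was not called. The lines, treatments and times differ between the experiments, and the difference between them was not tested.

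**Figure D5:**
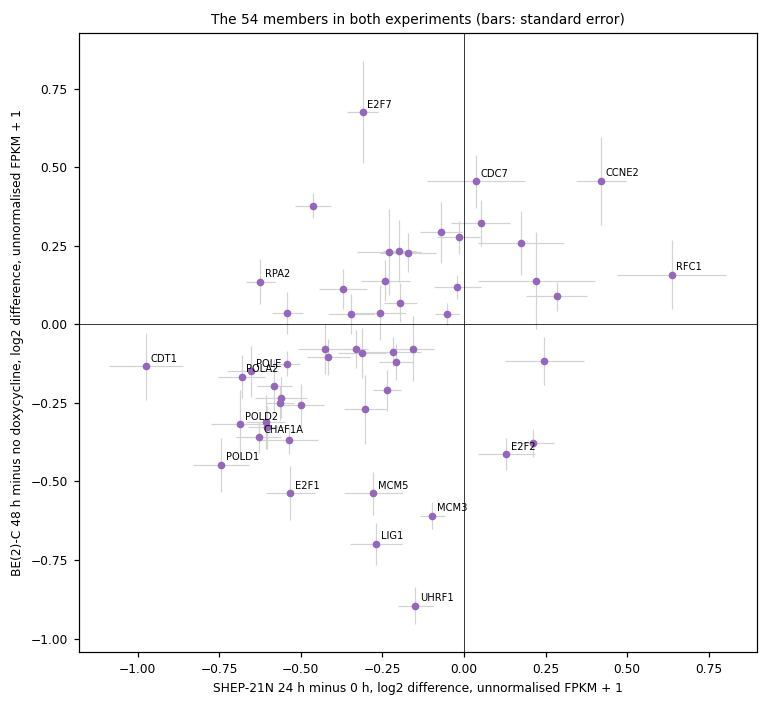
Log2 difference of each of the 54 genes in SHEP-21N cells at 24 h against 0 h (horizontal) and in BE(2)-C cells at 48 h against no doxycycline (vertical), on unnormalised FPKM + 1, with standard errors. CDT1 lies farthest left at -0.97 and near -0.13 on the vertical axis, and UHRF1 lies lowest at -0.90 and near -0.15 on the horizontal axis.

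The other lists were also read in BE(2)-C cells at 48 h on unnormalised values, when 18.1% of all tested genes were higher and 21.3% lower. Of 23 other replication genes 0 were higher and 7 lower, with TIMELESS, a fork protection gene, at 13.7 ± 0.550 unnormalised FPKM at 48 h, against 24.1 ± 1.79 with no doxycycline (SD, n = 3 each). Of 24 other E2F targets 1 was higher (ASF1B) and 7 lower, with the late-acting factor MYBL2 at 44.7 ± 1.44, against 131 ± 20.0. Of 24 mitosis genes 2 were higher and 12 lower, with the transcription factor FOXM1 at 76.1 ± 2.63, against 115 ± 1.11. The medians of these lists were -0.05, 0.02 and -0.24, when that of all tested genes was 0.02. Of 13 E2F partners 1 was lower, E2F5, at 5.84 ± 0.227 unnormalised FPKM at 48 h, against 14.3 ± 0.954 with no doxycycline, and 1 was higher.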

How the data were processed

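Polyadenylated RNA was measured in 20 SHEP-21N and 18 BE(2)-C libraries. The submitters' processing notes name HISAT, Cufflinks 2.0.0 and hg19. The authors deposited FPKM per gene, once unnormalised and once rescaled to ERCC spike-in RNAs. The formula of that rescaling is not known from the labels. Read counts were not used here, so the depth is unknown and the spread between libraries stands in for precision. At an unnormalised 0 the rescaled value was above 0, between 0.0706 and 0.127 in SHEP-21N libraries and between 0.0377 and 0.201 in BE(2)-C libraries.

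From these FPKM, log2(FPKM + 1) was fitted with limma 3.58.1 in R 4.3.3, with 1 mean per group, an intensity trend and Benjamini-Hochberg adjustment over all genes with a mean unnormalised FPKM of 1 or more. Spike-in RNAs were left out. Rescaled values were the planned scale, and unnormalised values, median centring, a pseudocount of 0.1, no filter, leaving out each library and a block on the column number were alternatives. The procedure was tested on simulated data with independent noise for each gene. Those data held no shift shared by all genes of a library, so they cannot speak to counts that varied when libraries were left out. The 54 genes and all other lists (replication, E2F target, E2F partner, G1, mitosis and cell type markers) were chosen with earlier results of these data known. Genes named are those with the smallest adjusted p and the extremes of each role, and genes outside that rule (such as POLE2, GINS1, CDC7, ORC2, ORC3, LIG1 and FEN1 in SHEP-21N cells or MCM4 and CDT1 in BE(2)-C cells) were chosen after their values were seen. The values of some single marker genes are not reported here.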

Additional observations from a re-analysis of the deposited data

Results flagged for a closer look

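The steps between doxycycline times were examined because they show where the difference from the start changed with time, and limma tested each step itself. On rescaled values 2 of the 54 genes differed between 6 and 2 h (MCM10 and CCNE2, both higher at 6 h) and 2 between 16 and 8 h (E2F2 and CCNE2, both lower at 16 h). Of all tested genes 1.58% were higher and 4.36% lower at the first step, and 2.01% and 0.455% at the second. At 24 h 21 genes were lower than at 6 h, and 11 were lower than at 16 h, when 3.15% and 7.63% of all tested genes were lower. Both counts varied when single libraries were left out, as given above. In BE(2)-C cells 54 genes were lower at 48 h than at 24 h, a step at which 92.3% of all tested genes were lower.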

How the results depend on the processing

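On unnormalised values the counts of genes higher and lower were 1 and 0 at 2 h, 14 and 4 at 4 h, 26 and 8 at 6 h, 13 and 13 at 8 h, and 4 and 23 at 16 h against 0 h, with 4 higher at 24 h. They were 25 and 10 for 6 against 2 h, 5 and 18 for 16 against 8 h, 0 and 48 for 24 against 6 h, and 1 and 25 for 24 against 16 h, when 23.1% and 29.1%, 15.02% and 13.2%, 18.0% and 25.0%, and 11.1% and 18.6% of all tested genes were called. In BE(2)-C cells they were 1 and 2 at 12 h, 5 and 14 at 24 h and 9 and 18 at 48 h against no doxycycline, and 1 and 2 for 48 against 24 h (1.35% and 1.84% of all at that step). Centred on the median of all tested genes, they were 0 and 0 at 2 h (0.0590% and 0.270% of all tested genes), so that E2F2 was not called there. They were 10 and 2 at 4 h (13.5% and 13.6%), 26 and 5 at 6 h (27.1% and 24.1%) and 13 and 10 at 8 h (24.1% and 23.1%). At 16 h they were 4 and 21 (21.7% and 25.4%), and at 24 h 4 and 33 (29.6% and 32.2%). They were 28 and 5 for 6 against 2 h (25.4% and 20.9% of all), 1 and 20 for 16 against 8 h (11.5% and 14.1%), 47 lower for 24 against 6 h (22.4%), and 1 and 19 for 24 against 16 h (11.6% and 11.5%). Centring in BE(2)-C cells gave 1 lower at 12 h (1.99% of all), 6 and 10 at 24 h (8.00% and 9.81%), 8 and 26 at 48 h (30.6% and 21.9%), and 9 lower for 48 against 24 h (7.27%). Without the filter on low values 1 gene was higher at 8 h, 1 higher for 6 against 2 h, 1 lower for 16 against 8 h and 5 lower for 24 against 16 h. With a pseudocount of 0.1 no count moved by over 1.5 times.

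At 24 h against 0 h some genes near no change turned sign. On unnormalised values the log2 differences were 0.13 for E2F2, 0.25 for MCM10, 0.21 for MCM6, 0.22 for MCM8 and 0.17 for POLA1, and centred they were 0.15, 0.27, 0.23, 0.24 and 0.20. Over the fits that left out 1 library they ranged from -0.14 to 0.080 for MCM10, -0.23 to 0.10 for MCM6, -0.19 to 0.078 for MCM8 and -0.18 to 0.19 for RRM1, on rescaled values. The cause was not tested.

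Leaving out 1 library at a time on rescaled values, the counts ranged from 1 to 43 lower at 24 h against 0 h, 3 to 46 for 24 against 6 h, 0 to 36 for 24 against 16 h and 0 to 2 for 16 against 8 h. Those higher ranged from 0 to 1 at 4 h, 1 to 4 at 6 h, 1 to 2 at 8 h and 0 to 1 at 16 h against 0 h, and 1 to 3 for 6 against 2 h, with 0 to 1 lower at 16 h. Shares of all tested genes in these fits are not given here, so the ranges cannot be set against other genes. The same fits on unnormalised values were chosen after seeing the data, as was a fit with the column number 0, 1 or 2 as a replicate block. Nothing in the labels says that a number marks a shared culture or day. Deviations from the group means of same-numbered libraries correlated at -0.24 to 0.18 over 24 library pairs of compared SHEP-21N groups and at -0.14 to 0.15 over 18 library pairs in BE(2)-C cells on rescaled values, with 2 and 1 above 0.1, and 4 of 20 and 5 of 18 libraries correlated best with their own number. With this block 1 gene was higher at 8 h against 0 h and for 6 against 2 h, and 1 was lower for 16 against 8 h, 3 for 24 against 16 h and 9 for 24 against 6 h, on rescaled values. The calls of MCM10 at 6 h and RFC1 at 8 h were lost, and the log2 difference of RRM1 at 24 h was -0.00775. On unnormalised values the block moved 1 count by over 1.5 times, E2F2 at 2 h being no longer called. The depth is unknown, so low genes such as E2F2 and POLA1 have no counting interval.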
